A study of Mus musculus with 6 samples.

Results

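Aminoacyl-tRNA synthetases join each amino acid to its tRNA, the step at which the genetic code is read into a pairing of molecules. Mammalian cells keep separate sets of these enzymes for the cytosol and for the mitochondrial matrix, nearly all encoded by different nuclear genes, and some cytosolic enzymes sit together in a multisynthetase complex. Many genes for cytosolic synthetases are known targets of ATF4, the transcription factor that the integrated stress response induces when amino acids run short.

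The synthetase genes were taken by their names in the array's annotation, without use of their values, which gave 35 of the 22180 genes that had a probe set of their own. Of the 35, 17 encode cytosolic enzymes, 16 encode mitochondrial enzymes, and Gars and Kars each encode the glycyl- or lysyl-tRNA synthetase of both compartments. A gene was read at its probe set with the highest mean over the 6 arrays, and no filter on low values was used, so all 35 were tested. Aars was left out because its probe set also covers Exosc6 (difference of that probe set -0.06 ± 0.088, SE, adjusted p = 0.90, limma).

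RAW264.7 is a mouse macrophage-like cell line. The cells were given 50 nM of a GapmeR, an antisense oligonucleotide with locked nucleic acid bases that leads to cutting of its target RNA, by lipid transfection, and total RNA was taken 48 h later for expression arrays. The Mist-targeted group (n = 3) received a GapmeR against Mist, a macrophage long noncoding RNA, and the Control group (n = 3) received a GapmeR with no target. All arrays thus come from transfected cells of the same line, each group rests on 1 GapmeR as the labels name them, and the level of Mist itself was not analysed here.

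The values are log2 expression, with array medians of 4.47 to 4.5 and correlations of 0.988 to 0.991 within groups and 0.986 to 0.989 between groups. The 8 macrophage markers, among them Csf1r and Adgre1, had group means of 9.15 to 12.77 with the Mist-targeted GapmeR and 8.92 to 12.83 in Control. The 16 measured T, B, epithelial, endothelial and fibroblast markers had group means of 3.60 to 5.05 and 3.58 to 4.89 in the same order. None of these 24 genes had an adjusted p under 0.05 (limma), where 0.415% of all genes did. At an unadjusted p under 0.05 (limma), Cd14 (difference -0.28 ± 0.10, SE) and Ptprc (-0.27 ± 0.084) were lower and Adgre1 (0.23 ± 0.089) was higher. Such a p was found for 0 of the 16 other markers and for 11% of all genes. The labels give no batch and do not say that replicates were separate cultures, so a p value here sets a difference against a spread that may be technical only. Each difference is the Mist-targeted mean minus the Control mean, in log2 units, from limma run over all 41345 probe sets, and a gene was called at a Benjamini-Hochberg adjusted p under 0.05.

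Most synthetase genes of either compartment had lower mean values with the Mist-targeted GapmeR, by small amounts. The difference was negative for 13 of the 17 cytosolic genes (median -0.19) and for 11 of the 16 mitochondrial genes (median -0.08). In bulk RNA a lower share of cells with a transcript and less of it per cell cannot be told apart. Over all genes 47.8% of differences were negative and the median was 0.0069. None of the 35 genes was called (limma, adjusted p of 0.14 to 0.99), where 0.415% of all genes were. At an unadjusted p under 0.05, 14 of the 35 were lower (9 cytosolic, 4 mitochondrial and Gars) and 1, Tarsl2, was higher, where 5.79% of all genes were lower and 5.24% higher (8.48% lower among genes left after the dimmest 40% of probe sets are set aside). In 13 of the 17 cytosolic genes every Mist-targeted array lay below every Control array, and in 2 every one lay above, against 4 and 2 of the 16 mitochondrial genes. Over all genes these shares were 9.97% below and 9.99% above. Among those brighter genes, which include all 35, they were 13.2% below and 13.1% above.

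**Figure D1:**
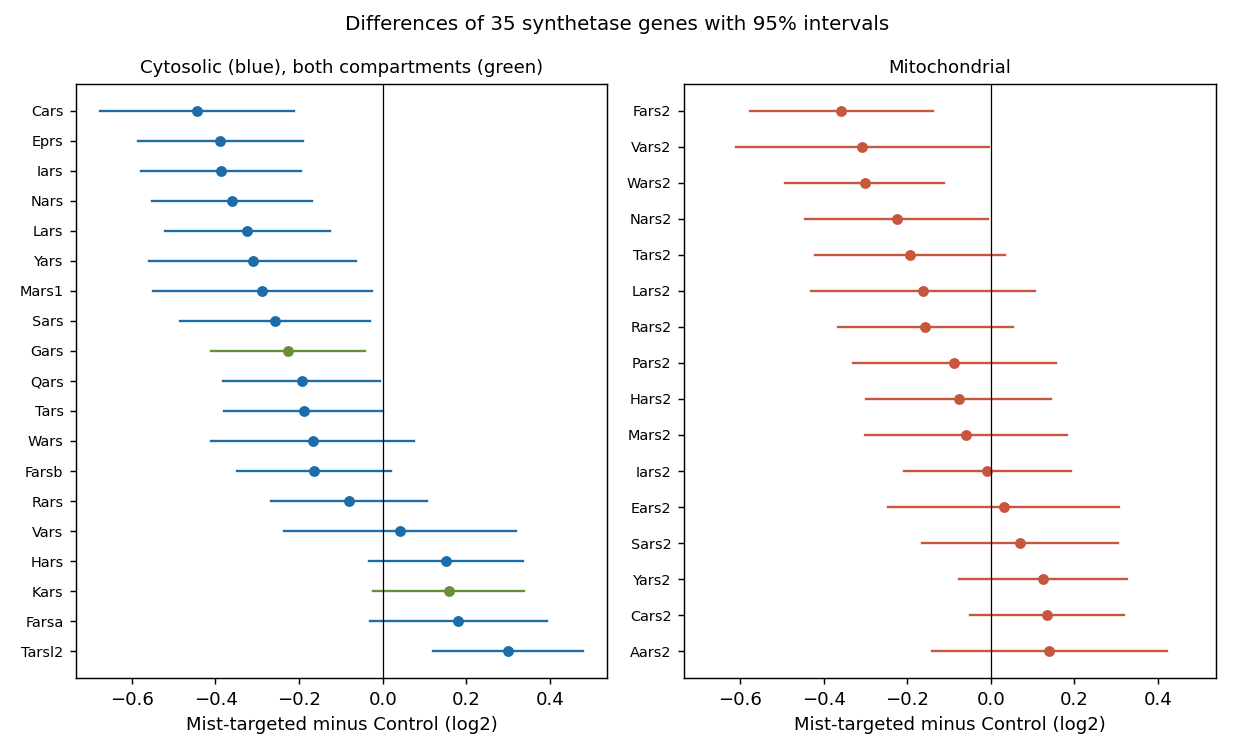
Difference of each of the 35 synthetase genes (log2, Mist-targeted minus Control) as a point with its 95% interval from limma, with cytosolic genes in blue and genes for both compartments in green on the left and mitochondrial genes in red on the right. Cars lies lowest at -0.44 and Tarsl2 highest at 0.30, and intervals that leave out 0 are not adjusted for the number of tests.

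The lowest difference among the synthetases was that of Cars, which charges tRNA with cysteine. Its log2 values were 7.79, 7.81 and 7.56 on the Mist-targeted arrays and 8.09, 8.18 and 8.21 on the Control arrays (difference -0.44 ± 0.099, SE with 3 arrays a group, limma, adjusted p = 0.16), a 1.36-fold lower level. The 2 groups did not overlap, and the third Mist-targeted array was the lowest. Eprs encodes a single protein that charges both glutamate and proline tRNAs. It had 10.22, 10.38 and 10.25 on the Mist-targeted arrays, against 10.63, 10.67 and 10.71 on the Control arrays (difference -0.39 ± 0.084, limma, adjusted p = 0.15). All 3 Mist-targeted values lay below the Control range, which was narrower than theirs.

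Iars, the isoleucyl-tRNA synthetase gene, had the smallest p of the 35. Its values were 10.97, 11.06 and 10.92 with the Mist-targeted GapmeR and 11.36, 11.35 and 11.40 in Control (difference -0.39 ± 0.082, limma, adjusted p = 0.14). Nars, for asparagine, had 10.79, 10.94 and 10.87 on the Mist-targeted arrays, against 11.25, 11.23 and 11.19 on the Control arrays (difference -0.36 ± 0.082, limma, adjusted p = 0.16). In both genes the groups were separate, and the second Mist-targeted array came closest to Control. These 4 genes were called lower when limma was run on the 25335 probe sets with a listed gene only: adjusted p was 0.031 for Cars, 0.036 for Eprs, 0.034 for Iars and 0.045 for Nars. That setting called 1.8% of all genes lower and 1.1% higher. Over all alternatives the adjusted p lay between 0.031 and 0.41 for Cars, 0.036 and 0.38 for Eprs, 0.034 and 0.37 for Iars, and 0.043 and 0.42 for Nars.

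**Figure D2:**
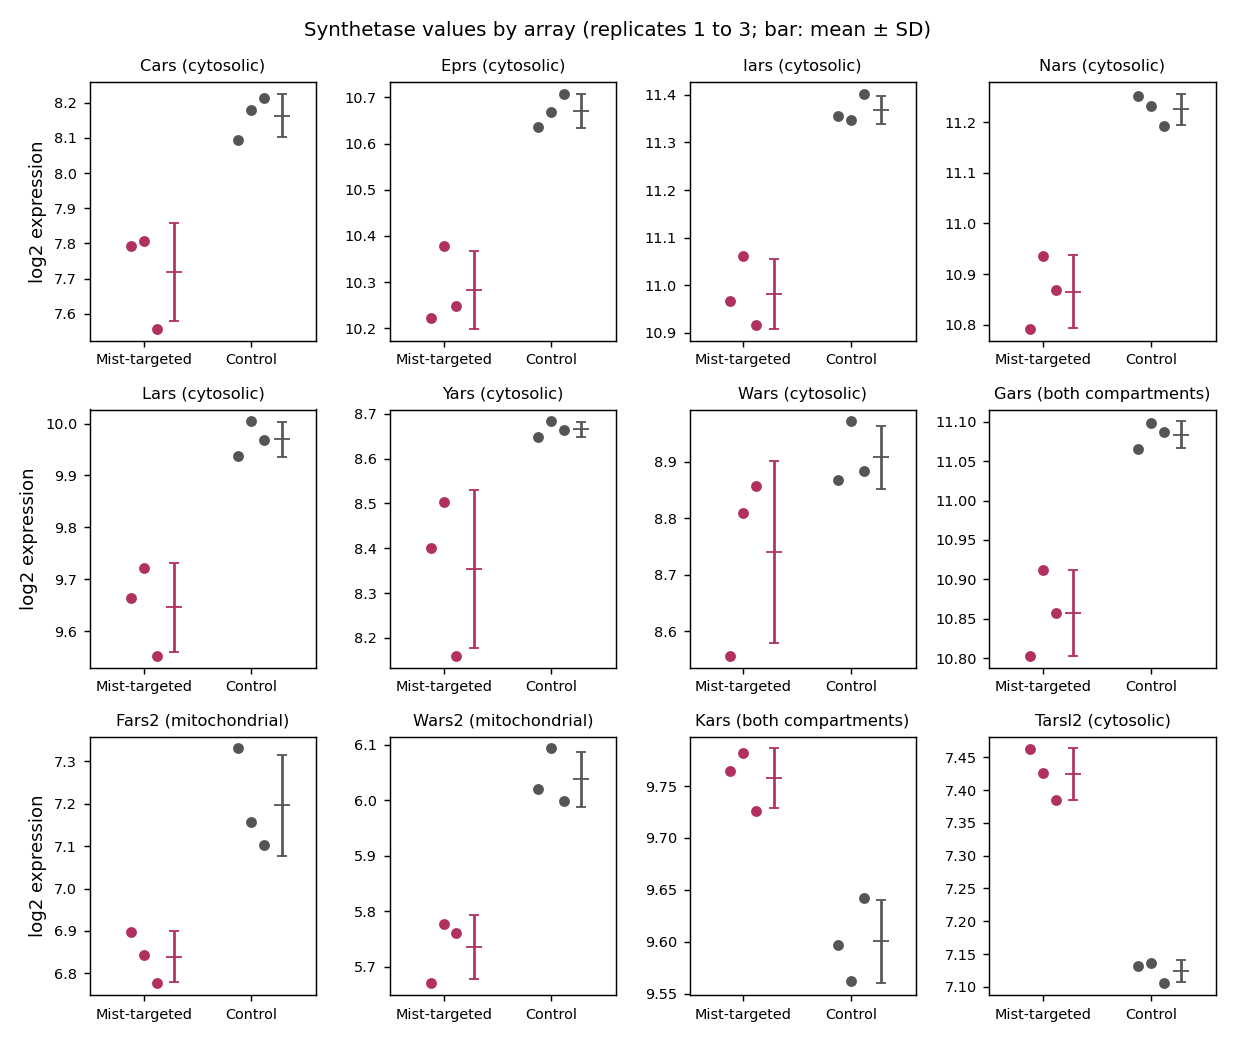
Log2 expression of 12 synthetase genes on each array, with the 3 Mist-targeted arrays in red left of the 3 Control arrays in grey, replicates 1 to 3 from left to right, and the mean ± SD beside each group; the vertical axes differ between panels and do not start at 0. In 10 panels all Mist-targeted points lie below the Control points, and in the panels of Kars and Tarsl2 all lie above.

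Lars, for leucine, had 9.66, 9.72 and 9.55 with the Mist-targeted GapmeR, against 9.94, 10.004 and 9.97 in Control (difference -0.32 ± 0.084, limma, adjusted p = 0.22). Yars, for tyrosine, had 8.40, 8.502 and 8.16 on the Mist-targeted arrays, against 8.65, 8.68 and 8.66 on the Control arrays (difference -0.31 ± 0.11, limma, adjusted p = 0.38). Its Mist-targeted values were spread over a wider range than its Control values, with the third array lowest. Mars1, the methionine enzyme that also charges the initiator tRNA, had a difference of -0.29 ± 0.11, and without the first Mist-targeted array, its lowest, the difference was -0.18. Sars, for serine, differed by -0.26 ± 0.097 and Tars, for threonine, by -0.19 ± 0.082. In each of these 5 genes the groups were separate.

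Wars, the tryptophan enzyme, is widely known as a gene that interferon gamma induces. It had 8.56, 8.81 and 8.86 with the Mist-targeted GapmeR and 8.87, 8.97 and 8.88 in Control (difference -0.17 ± 0.10, limma, adjusted p = 0.69), and without the first Mist-targeted array the difference was -0.07. The groups did not overlap, but the third Mist-targeted array, at 8.86, and the first Control array, at 8.87, nearly met. Interferon genes were read on the same arrays from a list chosen with earlier results of these data known. Of the 7 measured, 4 rose, where 0.212% of all genes did. They were Zbp1 (1.39 ± 0.094), Mx1 (0.79 ± 0.088), Stat2 (0.67 ± 0.079) and Ifi35 (0.65 ± 0.081, all limma, adjusted p = 0.0053 to 0.038), and Irf1 (0.40 ± 0.090), Cxcl10 (0.31 ± 0.097) and Irf9 (-0.0020 ± 0.12) were not called. None of the 4 was called without moderation, and with 1 array left out at most 1, Zbp1, was called (0 without Control replicate 2 or Mist-targeted replicate 3). The Control mean of Mx1 was 4.36, below the median of every array, so the size of its difference is not well determined.

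A smaller set of cytosolic genes had positive differences, none of them called. Tarsl2 encodes a further threonine enzyme related to Tars. Its values were 7.46, 7.43 and 7.38 on the Mist-targeted arrays and 7.13, 7.14 and 7.11 on the Control arrays (difference 0.30 ± 0.077, limma, adjusted p = 0.21, and 0.084 to 0.48 over the alternatives). The 2 threonine genes of the cytosol thus lay on opposite sides of 0, and both had separate groups. Hars, for histidine, had 9.66, 9.72 and 9.66 with the Mist-targeted GapmeR and 9.58, 9.499 and 9.498 in Control (difference 0.15 ± 0.079, adjusted p = 0.62). Vars, for valine, differed by 0.04 ± 0.12, with overlapping groups.

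The cytosolic phenylalanine enzyme is built of 2 kinds of subunit, encoded by Farsa and Farsb, and their differences had opposite signs. Farsa had 6.99, 7.16 and 7.15 on the Mist-targeted arrays and 7.01, 6.89 and 6.86 on the Control arrays (difference 0.18 ± 0.091, limma, adjusted p = 0.60). Farsb had 9.33, 9.23 and 9.30 with the Mist-targeted GapmeR and 9.45, 9.48 and 9.42 in Control (difference -0.16 ± 0.079, limma, adjusted p = 0.57). The groups overlapped for Farsa and were separate for Farsb.

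The 2 genes that serve both compartments also differed in sign. Gars, for glycine, had 10.80, 10.91 and 10.86 on the Mist-targeted arrays and 11.07, 11.10 and 11.09 on the Control arrays (difference -0.23 ± 0.079, limma, adjusted p = 0.39). Kars, for lysine, had 9.76, 9.78 and 9.73 with the Mist-targeted GapmeR and 9.60, 9.56 and 9.64 in Control (difference 0.16 ± 0.078, limma, adjusted p = 0.59). Neither gene had overlapping groups.

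Kars belongs to the multisynthetase complex, of which 7 synthetases were read. The other 6, Eprs, Iars, Lars, Mars1, Qars and Rars, had negative differences with separate groups, and the median of the 7 was -0.29, where 9.97% of all genes had lower, separate groups. Qars, the glutamine enzyme that has no mitochondrial counterpart gene, had 8.88, 8.85 and 8.86 on the Mist-targeted arrays and 9.13, 9.02 and 9.02 on the Control arrays (difference -0.19 ± 0.080, adjusted p = 0.50). Rars, for arginine, differed by -0.08 ± 0.080 (95% interval -0.27 to 0.11). The 12 cytosolic and both-compartment synthetases outside the complex had a median of -0.18, with 8 lower and 2 higher with separate groups. Within the complex, Eprs, Iars, Lars and Mars1 are also among the reported ATF4 targets described below, so these groupings overlap. The medians inside and outside the complex were not tested against each other. Of the complex's scaffold proteins, Aimp1 differed by -0.16 ± 0.088 and Eef1e1 by 0.10 ± 0.083, and Aimp2 shares its probe set with another gene and was left out.

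Among the mitochondrial enzymes the differences ran from -0.36 to 0.14. Fars2, for phenylalanine, had 6.90, 6.84 and 6.78 with the Mist-targeted GapmeR and 7.33, 7.16 and 7.10 in Control (difference -0.36 ± 0.094, limma, adjusted p = 0.22). Wars2, for tryptophan, had 5.67, 5.78 and 5.76 on the Mist-targeted arrays and 6.02, 6.09 and 5.999 on the Control arrays (difference -0.30 ± 0.081, limma, adjusted p = 0.23). Both had separate groups, and for Fars2 the first Control array was the highest. Vars2 (-0.31 ± 0.13) and Nars2 (-0.22 ± 0.094) were the other 2 mitochondrial genes with lower, separate groups, and the second probe set of Nars2 had a difference of -0.18 ± 0.10.

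Tars2 (-0.19 ± 0.097), Lars2 (-0.16 ± 0.11), Rars2 (-0.16 ± 0.090), Pars2 (-0.09 ± 0.10), Hars2 (-0.08 ± 0.095), Mars2 (-0.06 ± 0.10) and Iars2 (-0.01 ± 0.085) had negative differences and overlapping groups. On the positive side, Cars2 had 6.92, 6.99 and 6.91 on the Mist-targeted arrays and 6.77, 6.85 and 6.79 on the Control arrays (difference 0.13 ± 0.079, adjusted p = 0.67). Yars2 likewise had separate groups (0.12 ± 0.086), and Aars2 (0.14 ± 0.12), Sars2 (0.07 ± 0.10) and Ears2 (0.03 ± 0.12) had overlapping ones. The probe sets of mitochondrial genes were dimmer, with a median signal of 6.45 and a median SE of 0.096, against 9.37 and 0.084 for cytosolic genes. The part of signal in the contrast between the classes was not tested.

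Set against each other by amino acid, the cytosolic gene lay below its mitochondrial counterpart in 9 of 17 pairs and above it in 8. The gap was widest for cysteine, where Cars minus Cars2 came to -0.58 ± 0.076 (difference of the 2 differences, SE over arrays, n = 3 per group). The SE of a gap was computed without limma's moderation, so it cannot be compared directly with the SE of a single gene. The gap was -0.44 ± 0.096 for Yars and Yars2, -0.42 ± 0.074 for Eprs and Ears2, -0.38 ± 0.097 for Iars and Iars2, and -0.33 ± 0.080 for Sars and Sars2. In all 5 pairs the cytosolic difference was negative; the mitochondrial one was positive in 4, and that of Iars2 was -0.01.

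The order was turned for phenylalanine, where Farsa minus Fars2 came to 0.54 ± 0.087 but the other subunit, Farsb minus Fars2, to 0.19 ± 0.076, and for Tarsl2 and Tars2 at 0.49 ± 0.11, Vars and Vars2 at 0.35 ± 0.053, and Hars and Hars2 at 0.23 ± 0.099. For Nars and Nars2 both enzymes were lower and the gap was -0.14 ± 0.039, and for Tars and Tars2 it was 0.0050 ± 0.097. No p value was computed for these gaps, and an exact permutation test of 3 arrays against 3 could give no p under 0.1. The class medians differed by -0.11, and that contrast was not tested either.

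**Figure D3:**
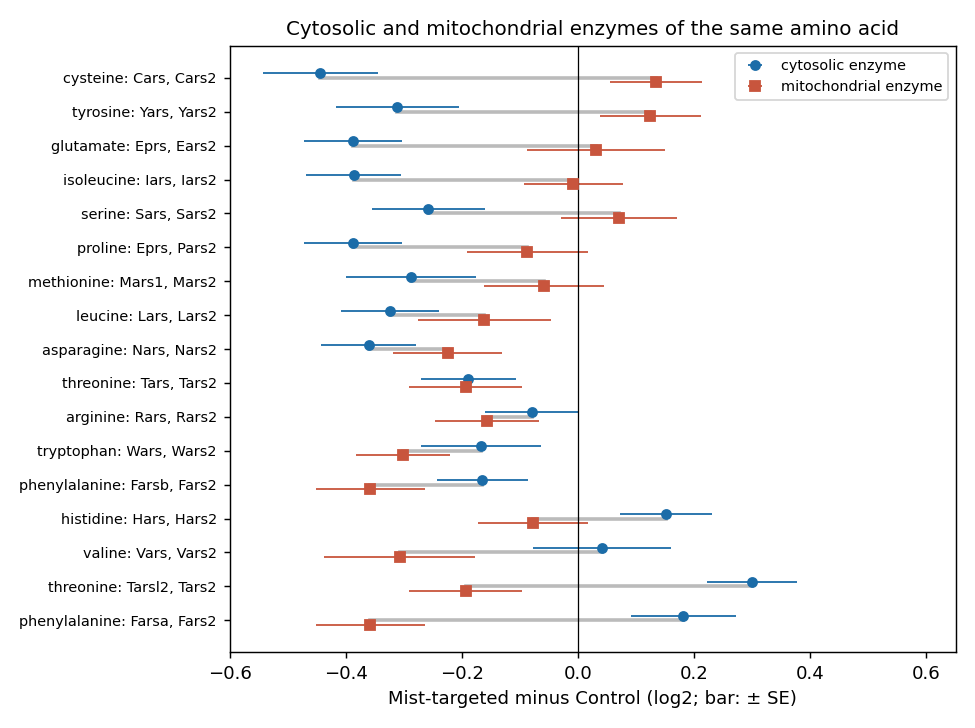
Differences (Mist-targeted minus Control, log2) of the cytosolic enzyme (blue circle) and the mitochondrial enzyme (red square) for each amino acid with both, with bars of ± SE and a grey line across the gap; Eprs, Tars2 and Fars2 stand in 2 rows each. The gap runs from -0.58 for Cars and Cars2 to 0.54 for Farsa and Fars2, and is 0.19 for Farsb and Fars2.

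The class medians on single arrays were set against the mean of the Control arrays. For cytosolic genes they were -0.26, -0.16 and -0.20 on the Mist-targeted arrays and -0.01, -0.0012 and -0.0020 on the Control arrays. For mitochondrial genes they were -0.05, -0.10 and -0.13 on the Mist-targeted arrays and -0.03, 0.03 and -0.01 on the Control arrays. Of all 35 genes, 25 lay below their Control mean on each of the 3 Mist-targeted arrays; whether they were the same 25 was not counted. The second Mist-targeted array held the highest Mist-targeted value for 10 of the 17 cytosolic genes and the lowest for 2.

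The 35 genes were also divided by whether they are widely reported as targets of ATF4, a division from background knowledge of other cells. The list was written with earlier results of these data known, so it is not an independent split. Of the 12 measured genes on that list (Cars, Eprs, Gars, Iars, Lars, Mars1, Nars, Sars, Tars, Vars, Wars and Yars), 11 had negative differences and separate groups, with a median of -0.30, where 9.97% of all genes had lower, separate groups, and Vars was the exception. Aars is on the list too but was not counted. The probe set it shares with Exosc6 had overlapping groups and a difference of -0.06 ± 0.088 (SE). The other 7 cytosolic and both-compartment genes had a median of 0.15, with Farsb, Qars and Rars negative and Hars, Kars, Farsa and Tarsl2 positive. Of these 7, 6 had separate groups too, 3 lower and 3 higher. The ATF4-target medians of the Mist-targeted arrays were -0.35, -0.19 and -0.33 against the Control mean, and those of the Control arrays were -0.03, 0.01 and 0.01.

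Other genes of the ATF4 pathway, from a list also written with earlier results known, were read on the same arrays. Their differences ran from -1.82 to 0.01. Of 25 measured, 24 were negative, 9 fell and 0 rose, with a median of -0.50, where 0.203% of all genes fell. None of the 9 was called without moderation of the variances, and 0 to 5 of the 25 genes were called with 1 array left out (0 without Control replicate 2 or Mist-targeted replicate 3). Those with the widest differences were Ddit4, an inhibitor of mTORC1 (-1.82 ± 0.16), the folate enzyme gene Aldh1l2 (-1.496 ± 0.15), the cystine transporter gene Slc7a11 (-1.33 ± 0.095) and the pseudokinase gene Trib3 (-1.15 ± 0.14). Ddit3, which encodes CHOP, fell too (-0.93 ± 0.11, limma, adjusted p = 0.0053 to 0.035 for these 5). The Mist-targeted mean of Ddit4 was 4.22, below the median of every array and within the range of the markers of other cell types, so the size of its difference is not well determined.

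Atf4 itself had 9.34, 9.33 and 9.40 on the Mist-targeted arrays, against 9.83, 9.82 and 9.83 on the Control arrays (difference -0.47 ± 0.076, limma, adjusted p = 0.074). Asns, which makes asparagine, had a difference of -0.48 ± 0.086 (adjusted p = 0.087). The lowest difference on the ATF4 list of synthetases, that of Cars at -0.44, was less negative than the median of the other ATF4 genes; the 2 lists were not tested against each other.

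**Figure D4:**
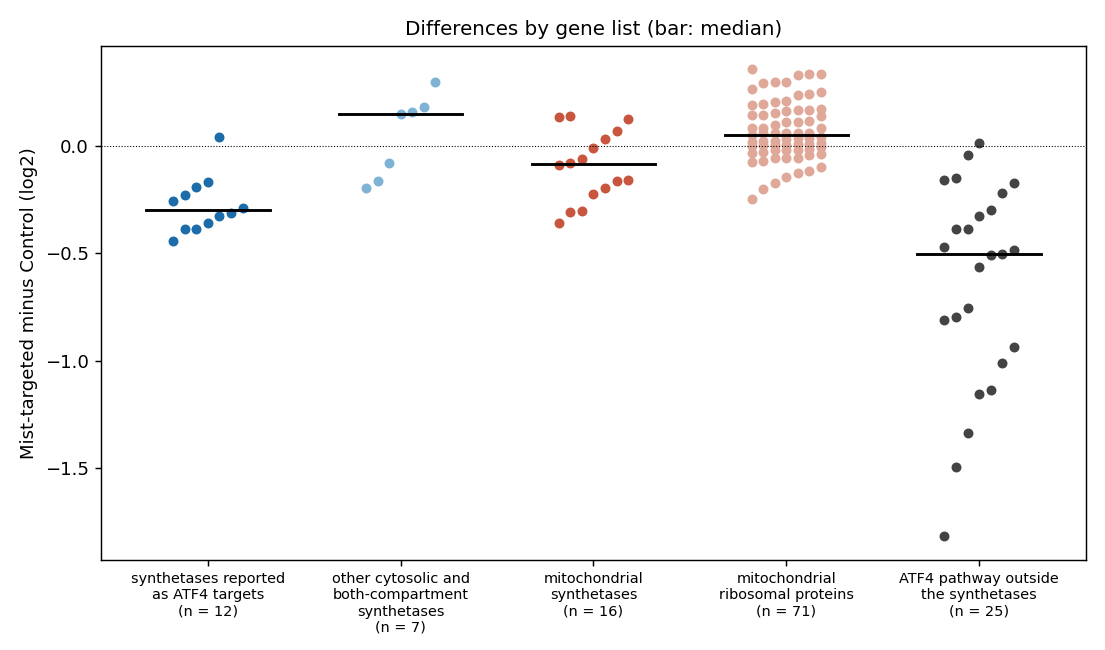
Differences (Mist-targeted minus Control, log2) of each measured gene in 5 lists, with a bar at each median. The medians are -0.30 for synthetases reported as ATF4 targets, 0.15 for the other cytosolic and both-compartment synthetases, -0.08 for mitochondrial synthetases, 0.05 for mitochondrial ribosomal proteins and -0.50 for ATF4 pathway genes outside the synthetases.

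ATF4 pairs with C/EBP proteins on an element searched here as TGATGNAA, on both strands (TTNCATCA on the other), in the window that RefSeq's table of assembly GRCm38.p6 gives for each start, 250 bases before it and 50 after it. A promoter was matched by gene ID for 26 of the 35 genes, and that of Cars, among others, was not listed. Only the first listed promoter of each synthetase gene was searched, while the share over all promoters counts every one listed. The element was present in 4 of the 26, those of Iars, Gars, Yars and Tars, all on the ATF4 list, and in 3.97% of all 32851 promoters. Of the 7 genes of that list with a promoter, the other 3, Eprs, Mars1 and Sars, had no match. No match was found in the 14 mitochondrial promoters, which says only that these letters are not in those windows. The following lines give the 45 bases before and 15 after the start for the 4 promoters with a match, the match in capitals, and for Eprs and Tarsl2, which had none; these genes were chosen after their values were seen.
Iars, chr13:49682085-49682144, plus strand: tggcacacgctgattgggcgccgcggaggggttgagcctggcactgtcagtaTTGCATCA
Gars, chr6:55037956-55038015, plus strand: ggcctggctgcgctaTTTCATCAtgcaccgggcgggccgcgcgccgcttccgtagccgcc
Yars, chr4:129189858-129189917, plus strand: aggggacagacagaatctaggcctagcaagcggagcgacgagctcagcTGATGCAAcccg
Tars, chr15:11399644-11399703, minus strand: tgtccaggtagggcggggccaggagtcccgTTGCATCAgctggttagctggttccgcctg
Eprs, chr1:185362999-185363058, plus strand: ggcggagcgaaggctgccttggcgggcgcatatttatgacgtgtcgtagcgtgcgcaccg
Tarsl2, chr7:65644853-65644912, plus strand: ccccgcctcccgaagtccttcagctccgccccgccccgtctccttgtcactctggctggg

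The first base of the match lay at position 8 after the start in Iars and 4 after it in Yars, and 30 before it in Gars and 15 before it in Tars. The differences of these 4 genes were -0.39, -0.23, -0.31 and -0.19 in the order printed, and Eprs, without a match in its window, had the same rounded difference as Iars. A match is a description of the letters, and no binding was measured.

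The steps on either side of tRNA charging were described by lists of their own. Uncharged tRNA is sensed by the kinase GCN2, encoded by Eif2ak4, whose difference was -0.02 ± 0.10 (adjusted p = 0.98). The list for this step also holds the related kinase genes Eif2ak1, Eif2ak2 and Eif2ak3 and the genes Eif2b1 to Eif2b5. It is thus wider than the sensing of uncharged tRNA. Of its 11 measured genes, 0 were called (limma, 3 at an unadjusted p under 0.05), with a median of 0.0010. Over all genes 0.415% were called and 11% had such a p. The interferon-inducible kinase gene Eif2ak2, which answers to double-stranded RNA, differed by 0.37 ± 0.10 (adjusted p = 0.24) and Eif2b4 by 0.28 ± 0.090. Of 15 genes for tRNA editing, amidation, export and delivery 0 were called (limma, 1 at an unadjusted p under 0.05), with a median of 0.04. Gatb, a subunit of the enzyme that makes mitochondrial glutaminyl-tRNA, differed by -0.26 ± 0.094 and the tRNA exporter gene Xpot by -0.15 ± 0.085.

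The mitochondrial synthetases supply the mitochondrial ribosome and its factors. Of 9 mitochondrial translation factors 0 were called (limma, 0 at an unadjusted p under 0.05), with a median of -0.03, Mtif2 at -0.20 ± 0.10 and Tsfm at 0.18 ± 0.11. Of 71 mitochondrial ribosomal protein genes 0 were called (limma, 7 at an unadjusted p under 0.05, all higher, where 5.24% of all genes were higher by that rule), 50 had a positive difference and the median was 0.05. Among the 13787 genes left after the dimmest 40% of probe sets are set aside, 1039 were higher by that rule. Mrps7 differed by 0.36 ± 0.0998 and Mrpl40 by 0.33 ± 0.11. Against these 50 positive differences of 71, the mitochondrial synthetases had 5 of 16, and the difference between the lists was not tested.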

How the data were processed

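The series matrix as deposited holds log2 expression values, with a column for each array. Per the labels' protocols, 5 µg of total RNA, purified on columns with DNase treatment, was labelled with biotin by an Affymetrix protocol; RMA and Partek stand in the submitters' processing notes without version or role. RMA commonly draws arrays to a shared distribution, which would reduce a change of most transcripts in 1 direction. The log2 values were used as deposited (2.50 to 14.08); 0 columns were left unused and 0 pairs were identical.

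Of 41345 probe sets, 23521 were listed with 1 gene, 1814 with several and 16010 with none. The 35 members were matched by gene ID in RefSeq's table, and no symbol changed. A linear model with group and no other term was fitted with limma 3.58.1 (R 4.3.3); its moderated two-sided test (3.48 prior degrees of freedom) gave differences, SE and p values, adjusted over all probe sets; the median SE was 0.11, and the number of arrays limits the precision. Tables and plots were made with Python 3.11.15, pandas 2.3.3, scipy 1.17.1 and matplotlib 3.10.9.

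Members and lists were chosen with earlier results of these data known. Values by array are given for called members, the 8 with the smallest p, the 4 widest differences, Wars, Gars, Kars, Eprs and Qars, and for some further members by choice. Of the other lists, up to 4 called genes or the 2 with the smallest p are named, and always Atf4, Ddit3, Trib3, Asns, Eif2ak4 and Xpot. Promoters were meant for called falls; none was called, so they were chosen by the motif search. Alternatives were a replicate block, eBayes with trend and robust, no moderation, a filter on the dimmest 40%, listed probe sets only, quantile normalization, median centring, array weights, the mean of a gene's probe sets, Gars and Kars counted as cytosolic, and leaving out each array.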

Additional observations from a re-analysis of the deposited data

How the results depend on the processing

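The number of cytosolic synthetase genes called lower was 0 as reported, 3 with eBayes using trend and robust (Eprs, Iars and Nars) and 4 on listed probe sets only, and 0 under every other alternative; mitochondrial genes had 0 calls under all of them. Over all probe sets the count of calls was 105 as reported, 161 without the dimmest 40%, 287 with trend and robust, 721 on listed probe sets only and 0 without moderation, and it lay between 2 and 40 when 1 array was left out. The causes were not tested. The cytosolic median lay between -0.22 and -0.19 and the mitochondrial median between -0.13 and -0.054 without 1 array (-0.054 without Mist-targeted replicate 3, -0.13 without Control replicate 3); the gap between them lay between -0.16 and -0.08, with -0.08 without Mist-targeted replicate 1. Of 525 values of single genes under the alternatives, 509 kept direction and call, 7 became called and 9 changed sign, all 9 without 1 array: Ears2 ranged from -0.085 to 0.11, Iars2 from -0.044 to 0.039, Mars2 from -0.11 to 0.014, Sars2 from -0.0052 to 0.14 and Vars from -0.056 to 0.12. With the replicate number as a block 0 probe sets were called. Deviations of arrays with the same number correlated at 0.20, 0.096 and 0.033, and 5 of 6 arrays correlated best with their own number, a hint from the data and not from the design, so the numbers were not taken as pairs.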
